A study of Danio rerio with 12 samples.

Results

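Integrins, semaphorins, plexins and neuropilins are the adhesion and guidance receptors, with their ligands, that a migrating macrophage can carry. The members were taken by gene symbol: integrin alpha subunits (itga), integrin beta subunits 1 to 8 (itgb), semaphorins of classes 3 to 7 (sema), plexins (plxn) and neuropilins (nrp). Of 35117 gene IDs in the count table, 83 had such a symbol in upper or lower case, and 62 of them reached at least 10 counts in 3 or more of the 12 libraries. These 62 were 16 integrin alpha subunits, 9 integrin beta subunits, 2 integrin-binding proteins whose symbols fit by their letters (ITGB1BP1 and itgb3bp), 12 membrane-anchored semaphorins, 7 secreted semaphorins, 12 plexins and 4 neuropilins. Of the other 21 IDs, 4 stayed at or below 9 counts in every library and 17 reached 10 counts in 1 or 2 libraries only. itga2b, the thrombocyte integrin alpha subunit, ITGB6 and plxnb2a.2 were among those 21.

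The libraries were made from mpeg-GFP+ cells, which are cells sorted from zebrafish embryos in which the macrophage-expressed mpeg promoter drives a green fluorescent protein. There were 4 groups of 3 libraries: csf1rDM at 50 hpf (hours post fertilization), control at 50 hpf, csf1rDM at 28 hpf and control at 28 hpf. By the methods, csf1rDM fish were homozygous for the j4e1 allele of csf1ra and for the re01 allele of csf1rb. csf1ra and csf1rb are the duplicated zebrafish genes for the receptor of macrophage colony-stimulating factor. The methods also give a second csf1rb allele for flow cytometry and lineage tracing, and do not name the allele used for these libraries. Controls were wild-type fish that carried the reporter, and the methods list for them another transgene line, with an mCherry reporter. Whether csf1rDM fish carried that line too was not stated. Every fish carried mpeg-GFP, and the methods give a pigment-blocking agent in the medium of all larvae. By the methods 35 embryos were pooled at 28 hpf, and csf1rDM pools at 50 hpf had 70. For control pools at 50 hpf the sample annotation used here has 35, a number the methods do not state for that group. Controls were not stated to be siblings of the mutants, so genotype and line background cannot be told apart. Replicates are separate pools, and the p-values measure the spread between pools.

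Integrins are paired receptors of 1 alpha and 1 beta subunit that tie the cell's actin cytoskeleton to extracellular matrix or to other cells. The beta2 integrins are the characteristic leukocyte set, and beta1 integrins bind collagens, laminins and fibronectin. Plexins are the receptors of semaphorins. Secreted class 3 semaphorins usually act on plexins through a neuropilin co-receptor, while membrane semaphorins can bind plexins directly, and plexin signalling acts on integrins and the cytoskeleton.

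The libraries held 8641139 to 20261650 counts, of which the members took 0.362% to 0.554%. Levels are given as CPM, a library's counts scaled to a common total, after TMM scaling, a correction for differences in library composition. CPM does not correct for transcript length, so levels were compared between groups and not between genes. A member is said to have risen or fallen where edgeR's quasi-likelihood test gave a Benjamini-Hochberg adjusted p under 0.01, over 16429 genes tested, and a log2 fold change beyond 1 in size. Changes are given with their standard error (±), and every adjusted p is from this test unless another tool is named. All 62 members passed the low-count filter. The 12 macrophage marker genes were found (19 IDs), and their summed level was 20591 to 24076 CPM in csf1rDM and 16679 to 18428 CPM in control at 50 hpf, and 25558 to 26582 CPM in csf1rDM and 21480 to 22438 CPM in control at 28 hpf. csf1ra differed between csf1rDM and control by a log2 fold change of -0.08 at 50 hpf and 0.26 at 28 hpf, and csf1rb by -0.83 and -0.78 (adjusted p = 0.014 and 0.02). Both transcripts were still counted in csf1rDM, so their counts do not check the genotype. Summed markers of muscle and mesenchyme exceeded 1000 CPM in csf1rDM replicate 3 and control replicates 1 and 2 at 50 hpf and in csf1rDM replicate 3 at 28 hpf, against 15.9 to 368 CPM in the other 8 libraries. A fit on those 8 libraries alone was added after the data were seen, and its values are given below. That fit keeps 1 control library at 50 hpf, so a call lost in it cannot be told apart from the loss of libraries.

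Between genotypes, 3 members were higher and 2 lower in csf1rDM than in control at 50 hpf, where 2.29% of all genes tested rose and 3.04% fell. At 28 hpf, 2 members were higher and 1 lower, where 1.84% of all genes rose and 2.23% fell. itgam.2 and ITGA1 were higher at both stages, and an ITGB1 gene (ENSDARG00000053232) was lower at both. plxnb2a.1 was higher and ITGB5 lower at 50 hpf. The median log2 fold change of the members was 0.31 at 50 hpf, against -0.02 for all genes, and 0.14 at 28 hpf, against 0.02 for all genes. SEMA6A, SEMA3B and itga2.3 met the count rule for members only through csf1rDM libraries. ITGA11, itga3a and SEMA3F (ENSDARG00000055373) met it only through control libraries. The share of that rule in these medians was not tested. In the 8-library fit, the members still called were itgam.2 and ITGA1, at each stage. The 3 libraries per group are pools, and fewer cells of a type and less RNA per cell cannot be told apart in them.

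**Figure D1:**
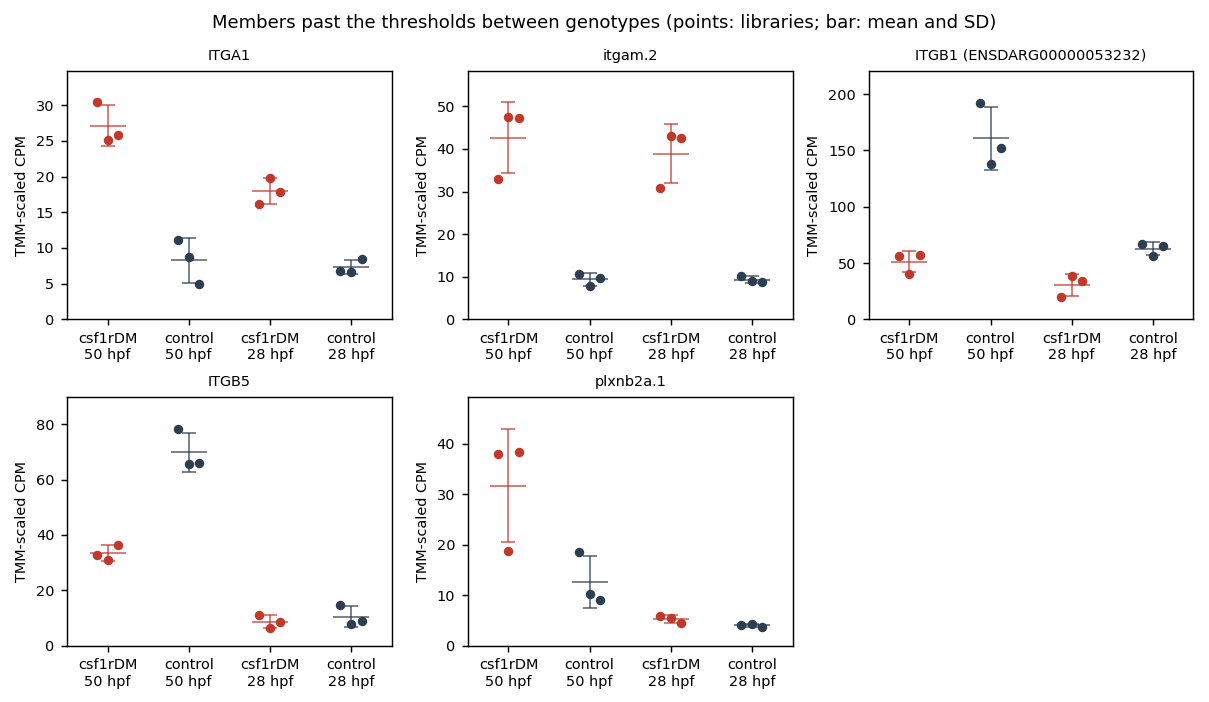
TMM-scaled CPM (vertical axis, from 0) of the 5 members that passed both thresholds between csf1rDM and control at either stage. Points are libraries, horizontal bars the mean and whiskers the SD of 3 libraries. itgam.2 lay between 30.8 and 47.6 CPM in the 6 csf1rDM libraries and between 7.75 and 10.8 CPM in the 6 controls.

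Among the leukocyte integrin alpha subunits, itgam.2 rose 4.55-fold in csf1rDM at 50 hpf and 4.17-fold at 28 hpf. itgam encodes the alpha subunit that pairs with beta2 in the mammalian complement receptor Mac-1. At 50 hpf it had 33.0, 47.6 and 47.2 CPM in csf1rDM and 10.8, 7.75 and 9.66 CPM in control. Its 28 hpf values were 30.8, 43.2 and 42.6 CPM in csf1rDM and 10.3, 8.91 and 8.81 CPM in control. Every csf1rDM library was above every control library, and the stages overlapped in both genotypes. Its log2 fold change was 2.18 ± 0.19 at 50 hpf (adjusted p = 1.1e-05) and 2.06 ± 0.19 at 28 hpf (adjusted p = 3.1e-05).

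Its paralogue itgam.1, with many more counts, had 209.7, 247 and 247 CPM in csf1rDM and 195, 187 and 234 CPM in control at 50 hpf. The 28 hpf libraries held 275, 262 and 331 CPM in csf1rDM and 199, 211 and 224 CPM in control. The genotypes overlapped at 50 hpf and did not at 28 hpf, where the log2 fold change was 0.45 ± 0.11 (adjusted p = 0.013), short of both thresholds. The count of itgam.2 was 0.157 to 0.193 times that of itgam.1 within each csf1rDM library and 0.0413 to 0.0552 times within each control at 50 hpf. At 28 hpf the ratio was 0.112 to 0.165 in csf1rDM and 0.0393 to 0.0518 in control. A ratio within a library does not depend on the scaling between libraries. Neutrophils also carry Mac-1, and the neutrophil markers found (6 of 8) summed to 192 to 275 CPM in csf1rDM and 103 to 134 CPM in control at 50 hpf, mostly CSF3R. At 28 hpf their sum was 179 to 340 CPM in csf1rDM against 193 to 575 CPM in control. The markers of the list did not move together. CSF3R averaged 204 CPM in csf1rDM against 89.55 CPM in control at 50 hpf, with 196 against 102 CPM at 28 hpf. The granule marker lyz averaged 12.8 CPM in both genotypes at 50 hpf, and 38.7 CPM in csf1rDM against 168.9 CPM in control at 28 hpf. npsn averaged 0.722 CPM in csf1rDM against 6.59 CPM in control at 50 hpf, with 25.0 against 108.1 CPM at 28 hpf. The part of neutrophils in the itgam values was not tested. How the counting treated reads shared by such paralogues was not given, so the split between them is uncertain.

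The common beta2 subunit itgb2, with which itgam products pair, was among the members with the most counts. It had 1279, 1400 and 1394 CPM in csf1rDM and 1386, 1166 and 1240 CPM in control at 50 hpf. At 28 hpf it had 1163, 1338 and 1404 CPM in csf1rDM and 1170, 1114 and 1152 CPM in control. The genotypes overlapped at both stages, and its log2 fold changes over the 4 comparisons between groups were 0.06 to 0.18, with the lowest adjusted p at 0.11. No ID carried the symbols itgal or itgax, the other partners of beta2.

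Both itgae genes, named for the mammalian alpha subunit that pairs with beta7, were well represented. itgae.1 had 293, 469 and 394 CPM in csf1rDM at 50 hpf and 109.9, 140.0 and 131 CPM in csf1rDM at 28 hpf. Control libraries held 292, 287 and 350.3 CPM at 50 hpf and 82.5, 87.9 and 99.8 CPM at 28 hpf. Every 50 hpf library was above every 28 hpf library. itgae.1 rose with stage by a log2 fold change of 1.60 ± 0.16 in csf1rDM (adjusted p = 1e-05) and 1.78 ± 0.16 in control (adjusted p = 5.2e-06).

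itgae.2 had 221, 254 and 271 CPM in csf1rDM at 50 hpf and 229, 336 and 317 CPM at 28 hpf. Its control values were 291, 232 and 228 CPM at 50 hpf and 232, 234 and 268 CPM at 28 hpf. Its stages overlapped in both genotypes. The itgae.1 to itgae.2 count ratio within a library was 1.33 to 1.85 at 50 hpf and 0.414 to 0.481 at 28 hpf in csf1rDM. In control the ratio was 1.001 to 1.54 at 50 hpf and 0.355 to 0.376 at 28 hpf, so the order of the pair's counts turned over between stages in both genotypes. In the RefSeq annotation of another assembly (GRCz12tu), the itgae genes lie near each other with 1 protein-coding gene between them.

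**Figure D2:**
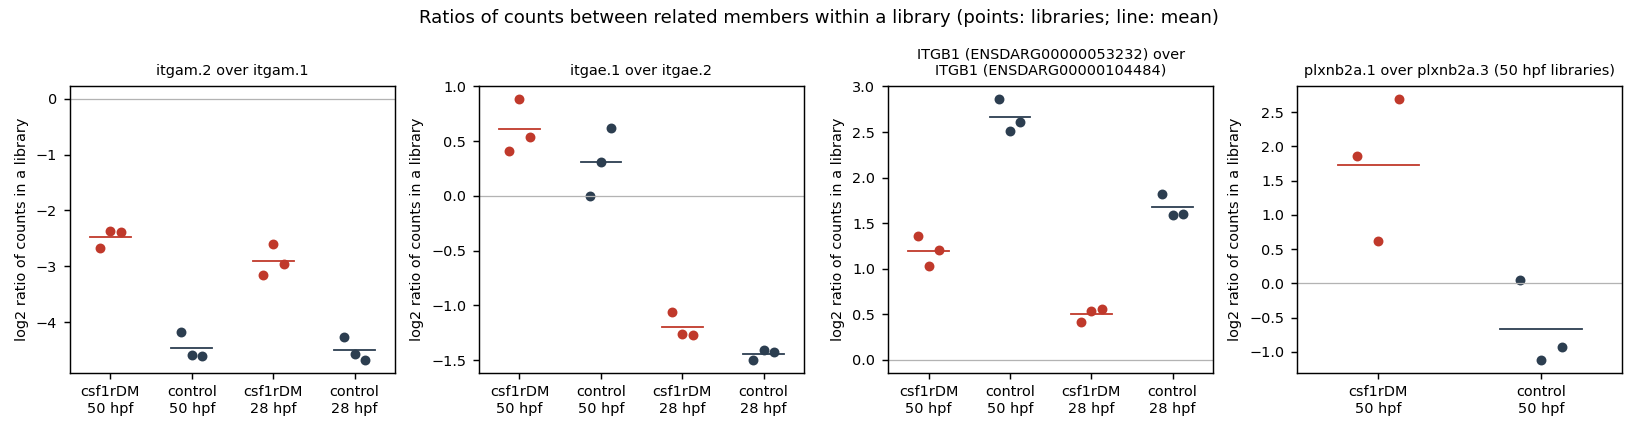
log2 ratio of counts between related members within each library (vertical axis). Points are libraries and lines are means. The itgam.2 ratio and the ITGB1 ratio separate csf1rDM from control at both stages, the itgae ratio separates 50 hpf from 28 hpf, and the ratio of plxnb2a.1 to plxnb2a.3, for which the 50 hpf libraries are plotted, is higher in every csf1rDM library than in any control.

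itgb7, the beta subunit that partners alpha-E and alpha-4 in mammals, had 177, 198 and 192 CPM in csf1rDM and 243, 217 and 207 CPM in control at 50 hpf. Its 28 hpf values were 174, 197 and 199 CPM in csf1rDM and 263, 262 and 259 CPM in control. Each csf1rDM library was below each control library of its stage. On the log2 scale the change was -0.23 ± 0.08 at 50 hpf (adjusted p = 0.071) and -0.46 ± 0.08 at 28 hpf (adjusted p = 0.0023), within the fold limit at both stages.

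ITGA1, the alpha subunit of a beta1 collagen receptor, was 3.27-fold higher in csf1rDM at 50 hpf and 2.45-fold higher at 28 hpf. It had 30.4, 25.2 and 25.8 CPM in csf1rDM and 11.2, 8.71 and 4.93 CPM in control at 50 hpf. The 28 hpf libraries held 16.1, 19.9 and 17.9 CPM in csf1rDM and 6.81, 6.70 and 8.50 CPM in control. No csf1rDM library overlapped a control. The log2 fold change was 1.71 ± 0.24 at 50 hpf (adjusted p = 0.00037) and 1.29 ± 0.25 at 28 hpf (adjusted p = 0.0028). The 28 hpf call was lost when control replicate 1 or 2 or csf1rDM replicate 2 or 3 was left out, with an adjusted p of up to 0.0183. ITGA10, the alpha subunit of another collagen receptor, had 14.3 to 23.9 CPM in csf1rDM and 11.8 to 17.98 CPM in control at 50 hpf, and the genotypes overlapped at both stages.

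The names table gave the symbol ITGB1, the common partner of alpha-1, alpha-4 and alpha-5, to 4 members. ENSDARG00000053232 had the most counts of them. It had 55.9, 40.5 and 57.3 CPM in csf1rDM and 192, 138 and 153 CPM in control at 50 hpf. At 28 hpf it had 19.7, 38.6 and 33.9 CPM in csf1rDM and 66.7, 56.1 and 65.0 CPM in control. The csf1rDM libraries were below the controls of their stage without overlap. Its log2 fold change was -1.65 ± 0.22 at 50 hpf (adjusted p = 0.00022) and -1.02 ± 0.22 at 28 hpf (adjusted p = 0.0058).

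The 28 hpf call of this ITGB1 gene was near the limit. It was lost without any 1 of the control libraries and without csf1rDM replicate 1 or 3, with an adjusted p of up to 0.0236 or, without csf1rDM replicate 1, a log2 fold change of -0.86. In the 8-library fit its log2 fold changes were -1.72 at 50 hpf and -1.11 at 28 hpf, with adjusted p = 0.0123 and 0.0267. With stage it rose by 1.36 ± 0.22 in control (adjusted p = 0.00057), a call lost in the 8-library fit (1.26, adjusted p = 0.0297), while in csf1rDM the value was 0.73 ± 0.22 (adjusted p = 0.025). The difference between those changes was -0.63 ± 0.30 and had an adjusted p of 0.41.

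The second ITGB1 gene by counts, ENSDARG00000104484, had 21.9, 19.9 and 24.8 CPM in csf1rDM and 26.4, 24.1 and 25.0 CPM in control at 50 hpf. Its 28 hpf values were 14.8, 26.6 and 23.0 CPM in csf1rDM and 18.8, 18.6 and 21.5 CPM in control, and the genotypes overlapped at both stages. Within a library, ENSDARG00000053232 had 2.04 to 2.56 times the counts of ENSDARG00000104484 in csf1rDM and 5.71 to 7.29 times in control at 50 hpf. At 28 hpf the ratio was 1.33 to 1.47 in csf1rDM and 3.02 to 3.54 in control. The other ITGB1 genes stayed at 0.499 to 8.50 CPM, with no adjusted p under 0.01 in any comparison.

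ITGA4, which forms the VCAM1 receptor VLA-4 with beta1, had 125, 122 and 127 CPM in csf1rDM at 50 hpf and 52.5, 66.7 and 65.5 CPM in csf1rDM at 28 hpf. In control it had 121, 80.7 and 82.8 CPM at 50 hpf and 67.1, 62.6 and 63.9 CPM at 28 hpf. The stages did not overlap in either genotype. ITGA4 rose with stage in csf1rDM by a log2 fold change of 1.01 ± 0.15 (adjusted p = 0.00022), just past the fold limit, and the value in control was 0.55 ± 0.15 (adjusted p = 0.015). It was within the fold limit without csf1rDM replicate 1 at 28 hpf or replicate 3 at 50 hpf, with no low-count filter and in the 8-library fit, with a lowest value of 0.91. ITGA4 was 1 of 3 members with an unadjusted p under 0.05 for the interaction of genotype and stage (0.46 ± 0.21).

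ITGB5, a beta subunit that pairs with alpha-v in a vitronectin receptor, rose with stage in both genotypes. It had 32.7, 30.9 and 36.5 CPM in csf1rDM at 50 hpf and 10.9, 6.21 and 8.56 CPM in csf1rDM at 28 hpf. Control libraries held 78.1, 65.4 and 66.1 CPM at 50 hpf and 14.8, 7.81 and 8.81 CPM at 28 hpf. On the log2 scale the change with stage was 1.98 ± 0.24 in csf1rDM (adjusted p = 5.5e-05) and 2.74 ± 0.24 in control (adjusted p = 4.1e-06).

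At 50 hpf, ITGB5 was lower in every csf1rDM library than in any control, by -1.07 ± 0.22 on the log2 scale (adjusted p = 0.0046). At 28 hpf the genotypes overlapped (-0.30 ± 0.24). The 50 hpf call was lost when any 1 of the 6 libraries was left out, with an adjusted p of up to 0.0169, and in the 8-library fit, where the log2 fold change was -1.11 (adjusted p = 0.128).

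ITGAV, the alpha-v subunit, had 169.6, 148 and 222 CPM in csf1rDM and 172, 126 and 139.9 CPM in control at 50 hpf. The 28 hpf libraries held 142, 174 and 201 CPM in csf1rDM and 111, 108 and 125 CPM in control. The genotypes overlapped at 50 hpf and not at 28 hpf, where the log2 fold change was 0.59 ± 0.17 (adjusted p = 0.024). ITGB3, another partner of alpha-v and the thrombocyte beta subunit, had 8.30 to 9.69 CPM in csf1rDM and 7.74 to 12.3 CPM in control at 50 hpf, and 8.74 to 11.3 CPM in csf1rDM and 12.2 to 18.3 CPM in control at 28 hpf. Its lowest adjusted p in any comparison was 0.06. Summed CPM of the thrombocyte markers (8 of 8 found) did not overlap between genotypes, with 3291 to 3943 in csf1rDM against 1248 to 1575 in control at 50 hpf, and 5589 to 6083 in csf1rDM against 3083 to 3231 in control at 28 hpf. Nearly all of it was f13a1b, for a coagulation factor subunit that mammalian macrophages also make. The markers itga2b, mpl and gp9 averaged under 2 CPM in every group. GP1BB, also on the list, had 28 hpf means of 5.89 CPM (csf1rDM) and 4.26 CPM (control). Its 50 hpf means were 0.0562 CPM (csf1rDM) and 0.184 CPM (control). Group means of FLI1, another marker of the list, ran from 25.9 to 47.1 CPM.

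The remaining integrin alpha subunits had few counts. ITGA3, itga3a, ITGA5, itga6b, ITGA8, ITGA9, ITGA11 and itga2.3 lay between 0 and 13.7 CPM in all libraries. Under the filter and test described above, none of them passed the thresholds in any comparison. The beta subunit ITGB4, which pairs with alpha-6 in the hemidesmosomes of epithelia, had 21.1 CPM in csf1rDM replicate 1 at 50 hpf and 0 to 4.26 CPM in the other 11 libraries. Summed CPM of the keratinocyte markers found (7 of 8) was 447 to 539 in csf1rDM and 210.0 to 290.2 in control at 50 hpf, and 793 to 1232 in csf1rDM and 545 to 818 in control at 28 hpf. krt8, cdh1 and krt4 carried nearly all of it, and krt5 was at or near 0 in csf1rDM. The part of these cells in the integrin values was not tested.

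The integrin-binding proteins showed lower values at 50 hpf. ITGB1BP1, which binds the beta1 tail and counters integrin activation, had 25.6, 29.5 and 23.8 CPM in csf1rDM at 50 hpf and 40.3, 37.0 and 38.6 CPM in csf1rDM at 28 hpf. The log2 fold change with stage was -0.55 ± 0.12 in csf1rDM (adjusted p = 0.0044) and -0.42 ± 0.12 in control (adjusted p = 0.023), inside the fold limit. itgb3bp, whose mammalian counterpart is also a centromere protein, had 0.793 to 6.01 CPM and did not pass both thresholds in any comparison under the filter and test described above. Its log2 fold change with stage was -1.45 ± 0.40 in control (adjusted p = 0.018). DESeq2, and edgeR with only the 6 control libraries in the fit, called itgb3bp with stage in control.

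Under the filter and test described above, the 12 membrane semaphorins had no call in any comparison. Of all genes tested, 2.29% rose and 3.04% fell between genotypes at 50 hpf, and 1.84% rose and 2.23% fell at 28 hpf. With stage 4.7% rose and 3.54% fell in csf1rDM, and 4.29% rose and 2% fell in control. At such shares, no call among 12 does not set the class apart. sema4aa and sema4ab, class 4 semaphorins related to the mammalian immune semaphorin SEMA4A, held most of the counts of the membrane semaphorins. sema4aa had 133, 157 and 138 CPM in csf1rDM and 81.6, 77.4 and 93.0 CPM in control at 50 hpf. At 28 hpf it had 159, 163 and 165 CPM in csf1rDM and 105, 111 and 109 CPM in control. sema4ab had 238, 224 and 236 CPM in csf1rDM and 191, 155 and 147 CPM in control at 50 hpf. Its libraries at 28 hpf had 186, 218 and 218 CPM in csf1rDM, with controls at 144, 134 and 145 CPM.

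Neither gene's csf1rDM libraries overlapped the controls of their stage. The log2 fold change of sema4aa was 0.76 ± 0.09 at 50 hpf (adjusted p = 0.00011) and 0.58 ± 0.09 at 28 hpf (adjusted p = 0.00092). That of sema4ab was 0.50 ± 0.10 at 50 hpf (adjusted p = 0.0044) and 0.56 ± 0.10 at 28 hpf (adjusted p = 0.0025). All 4 passed the p threshold and stayed within the fold limit.

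**Figure D3:**
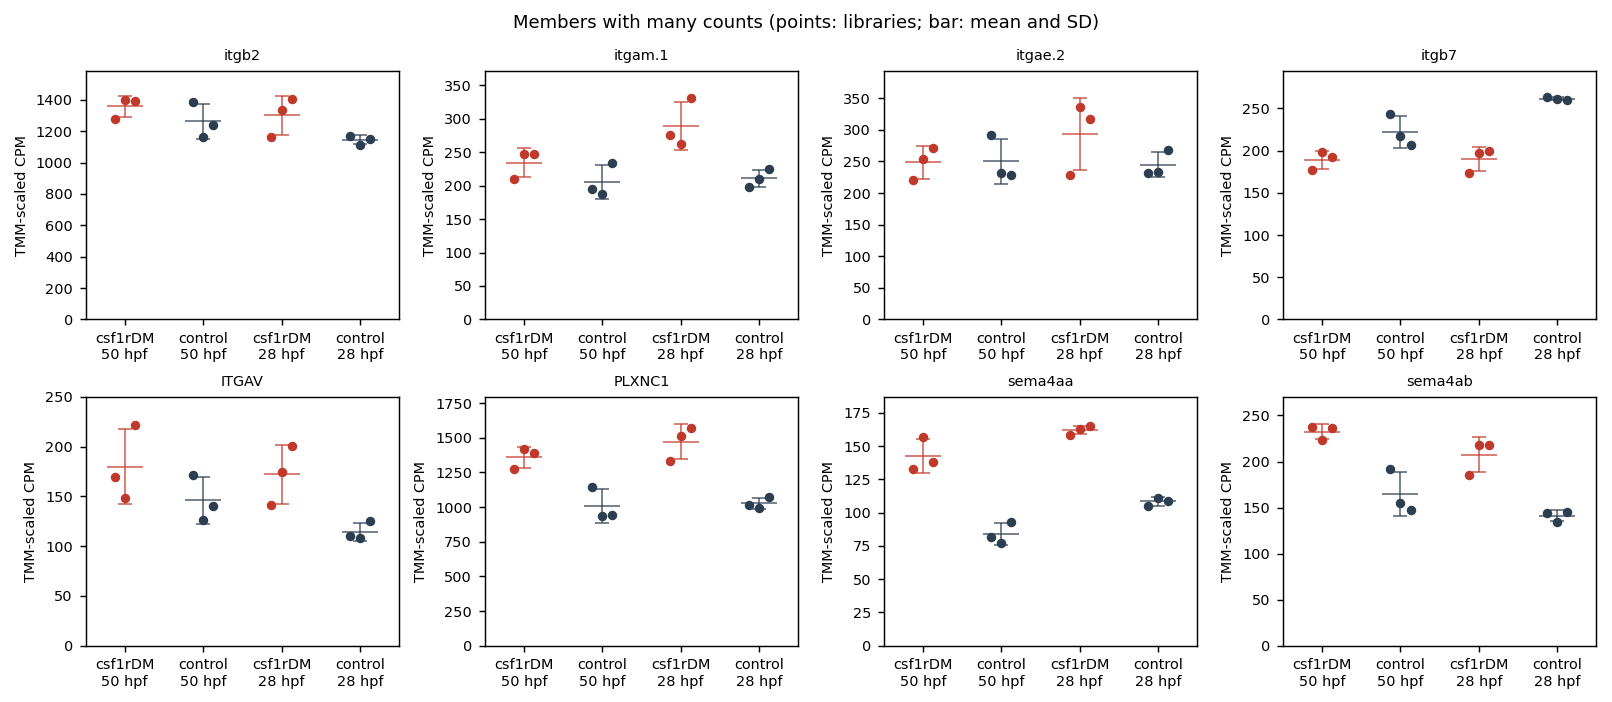
TMM-scaled CPM (vertical axis, from 0) of 8 members with many counts. Points are libraries, horizontal bars the mean and whiskers the SD of 3 libraries. PLXNC1, sema4aa and sema4ab were higher and itgb7 lower in every csf1rDM library than in any control of the same stage, each by less than the fold limit, while itgb2 overlapped between genotypes.

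Of the membrane semaphorins with fewer counts, sema7a and SEMA6A were singled out after their values were seen. sema7a, a lipid-anchored semaphorin that binds plexin C1 and beta1 integrins in mammals, had 2.203, 8.92 and 6.001 CPM in csf1rDM and 12.2, 12.1 and 10.3 CPM in control at 50 hpf. Its 28 hpf values were 2.43, 0.945 and 2.21 CPM in csf1rDM and 7.20, 4.84 and 4.90 CPM in control. The genotypes did not overlap at either stage, and the log2 fold change was -1.01 ± 0.43 at 50 hpf (adjusted p = 0.12) and -1.62 ± 0.46 at 28 hpf (adjusted p = 0.027). SEMA6A, a transmembrane ligand of class A plexins, had 4.05, 3.94 and 5.78 CPM in csf1rDM and 0.813, 0.0957 and 0.192 CPM in control at 50 hpf, a log2 fold change of 3.64 ± 0.90 (adjusted p = 0.012). Those control values were 13, 2 and 3 counts. SEMA6A met the count rule for members only through its csf1rDM libraries, so that rule favoured a difference in this direction. DESeq2 called SEMA6A at 50 hpf, and sema7a at 28 hpf and with stage in csf1rDM. With edgeR, SEMA6A was called at 50 hpf with no low-count filter or without control replicate 1. So was sema7a with stage in csf1rDM, with at least 10 counts in every library or without csf1rDM replicate 1 at 50 hpf. The other 8 membrane semaphorins did not reach an adjusted p under 0.01 in any comparison, although some were past the fold limit, and their highest level was 27.6 CPM, in sema6ca.

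PLXNC1, the receptor of SEMA7A in mammals, was the plexin with the most counts. It had 1272, 1417 and 1387 CPM in csf1rDM and 1147, 936 and 940.5 CPM in control at 50 hpf. The 28 hpf libraries held 1331, 1513 and 1570 CPM in csf1rDM and 1018, 993 and 1070 CPM in control. Each csf1rDM library was above each control of its stage. Its log2 fold change was 0.43 ± 0.08 at 50 hpf (adjusted p = 0.0031) and 0.52 ± 0.08 at 28 hpf (adjusted p = 0.0011), again within the fold limit. With stage it was -0.11 ± 0.08 in csf1rDM and -0.03 ± 0.08 in control.

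Across stages, 10 members rose between 28 and 50 hpf in csf1rDM and 10 in control, and 0 fell in either. In csf1rDM 4.7% of all genes tested rose with stage and 3.54% fell, and in control 4.29% rose and 2% fell. Of the 12 plexins, 5 rose in each genotype: plxnb2a.1, plxnb2a.3, plxnb2b, PLXNA2 and plxnd1. itgae.1, ITGB5, SEMA3D and SEMA3G rose in both genotypes too, ITGA4 passed in csf1rDM and ITGB1 (ENSDARG00000053232) in control. SEMA3D and SEMA3G met the count rule for members only through their 50 hpf libraries, so that rule favoured their place among the 10. The median log2 fold change of the members with stage was 0.80 in csf1rDM and 0.46 in control, against 0.04 and 0.06 for all genes. Several other members with few counts, among them ITGA11, itga6b, SEMA6C and SEMA4B (ENSDARG00000074414), also met the count rule only through 50 hpf libraries. itga2.3 met it only through 28 hpf libraries. The rule thus favoured higher medians for the members than for all genes, and its share in them was not tested. In the 8-library fit, every member called with stage was among the 10 of its genotype, but some of the 10 were lost. In csf1rDM ITGA4, plxnd1, SEMA3D and SEMA3G were lost. In control ITGB1 (ENSDARG00000053232), PLXNA2, plxnb2a.1, plxnd1 and SEMA3D were lost.

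**Figure D4:**
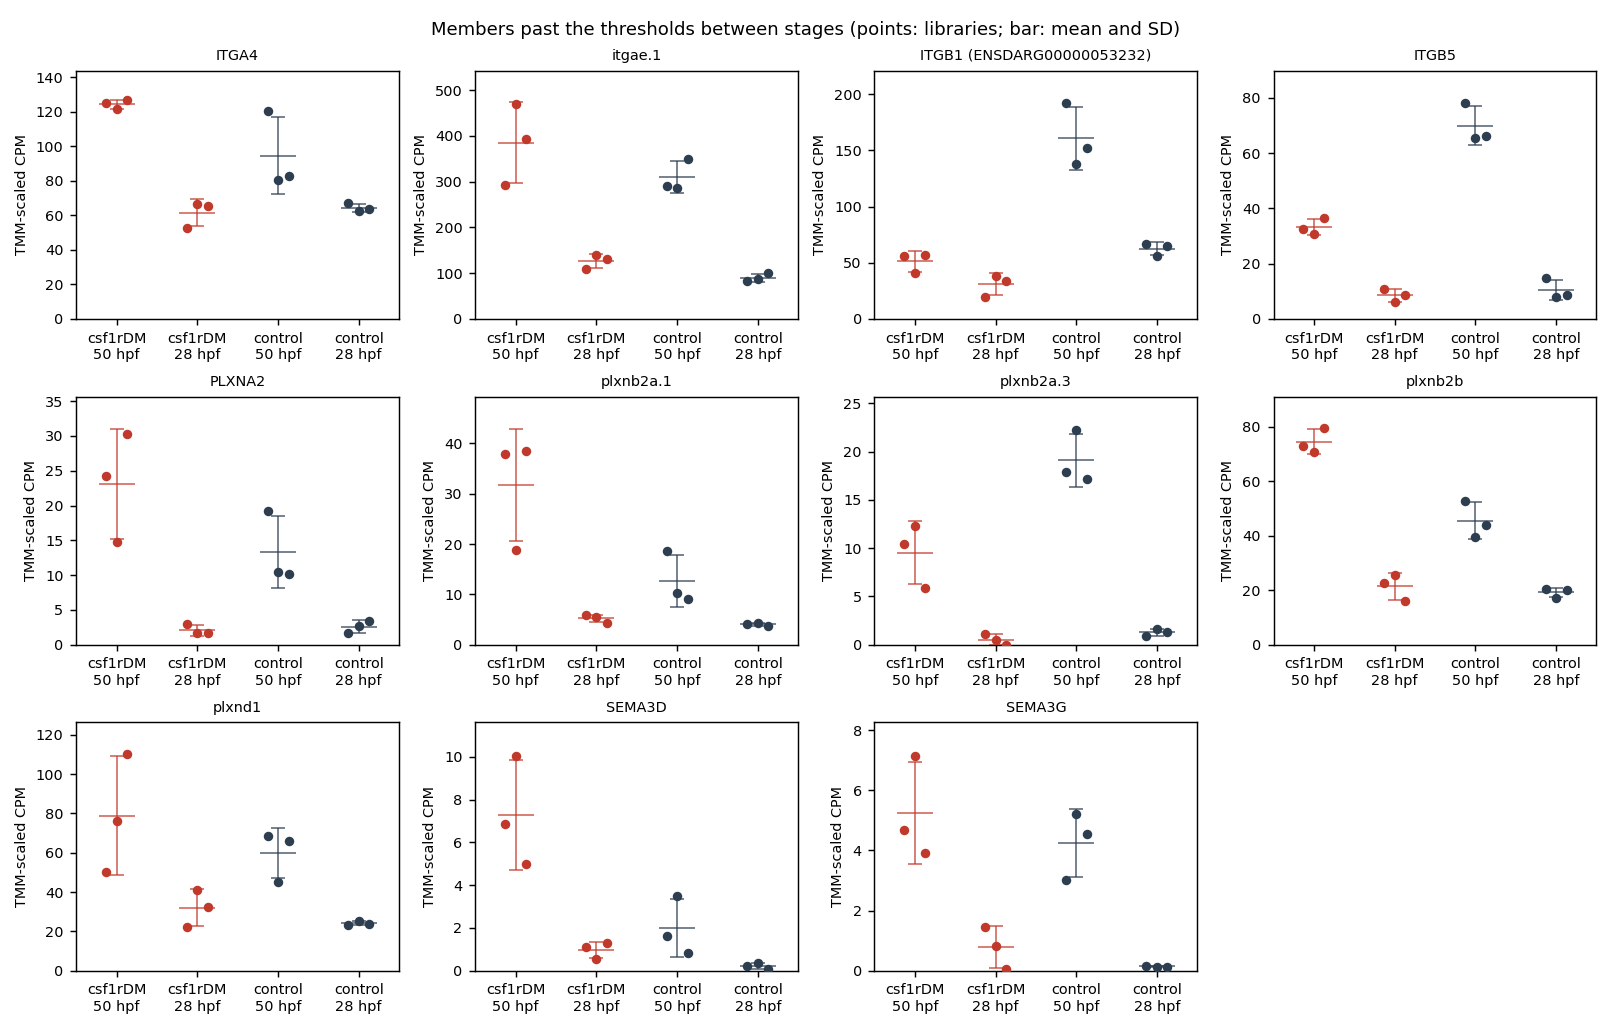
TMM-scaled CPM (vertical axis, from 0) of the 11 members that passed both thresholds between 50 and 28 hpf in either genotype. Points are libraries, horizontal bars the mean and whiskers the SD of 3 libraries. In csf1rDM and in control, the 50 hpf libraries lie above the 28 hpf libraries in each of the 11 panels.

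The 3 members of the plexin B2 type, receptors of class 4 semaphorins, rose with stage in both genotypes. plxnb2b had 73.1, 70.8 and 79.6 CPM in csf1rDM at 50 hpf and 22.8, 25.6 and 15.9 CPM in csf1rDM at 28 hpf. Its control values were 52.9, 39.5 and 44.1 CPM at 50 hpf and 20.5, 17.3 and 19.98 CPM at 28 hpf. On the log2 scale the change with stage was 1.80 ± 0.17 in csf1rDM (adjusted p = 7e-06) and 1.24 ± 0.17 in control (adjusted p = 0.00016). At 50 hpf csf1rDM was above control without overlap, by 0.71 ± 0.16 (adjusted p = 0.0081), within the fold limit.

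plxnb2a.1 had 37.9, 18.8 and 38.4 CPM in csf1rDM at 50 hpf and 5.83, 5.54 and 4.42 CPM in csf1rDM at 28 hpf. In control it had 18.6, 10.3 and 9.08 CPM at 50 hpf and 4.04, 4.35 and 3.72 CPM at 28 hpf. It rose with stage by a log2 fold change of 2.59 ± 0.32 in csf1rDM (adjusted p = 6.4e-05) and 1.64 ± 0.32 in control (adjusted p = 0.0022). The control call was lost without any 1 of the 28 hpf controls and in the 8-library fit (1.14, adjusted p = 0.0927).

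Between genotypes plxnb2a.1 was 1.33 ± 0.30 higher in csf1rDM at 50 hpf on the log2 scale (adjusted p = 0.0075). The lowest csf1rDM library and the highest control, at 18.8 and 18.6 CPM, nearly touched. That call was lost without csf1rDM replicate 1 or 3 or control replicate 2 or 3 (adjusted p of up to 0.0418), with only the 6 libraries compared, without TMM scaling and in the 8-library fit (1.57, adjusted p = 0.0519).

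plxnb2a.3 had 10.4, 12.3 and 5.93 CPM in csf1rDM at 50 hpf and 1.09, 0.473 and 0 CPM in csf1rDM at 28 hpf. Control libraries held 17.9, 22.2 and 17.2 CPM at 50 hpf and 0.950, 1.59 and 1.30 CPM at 28 hpf. The log2 fold change with stage was 4.35 ± 0.62 in csf1rDM (adjusted p = 0.0002) and 3.88 ± 0.55 in control (adjusted p = 0.00023). With only the 6 csf1rDM libraries in the fit, the adjusted p in csf1rDM was 0.0108.

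At 50 hpf plxnb2a.3 was lower in every csf1rDM library than in any control, with a log2 fold change of -1.003 ± 0.47 (adjusted p = 0.17), while plxnb2a.1 was higher. The plxnb2a.1 to plxnb2a.3 count ratio at 50 hpf was 1.53 to 6.48 in csf1rDM and 0.462 to 1.04 in control. At 28 hpf, with few plxnb2a.3 counts, it was 5.33 and 11.7 in csf1rDM replicates 1 and 2, undefined in replicate 3, which had 0 plxnb2a.3 counts, and 2.74 to 4.25 in control. The plxnb2a genes are consecutive protein-coding genes in RefSeq (GRCz12tu), with plxnb2a.2 between them, and their reads could be shared.

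PLXNA2, a class A plexin that serves class 3 and class 6 semaphorins, had 24.2, 14.7 and 30.3 CPM in csf1rDM at 50 hpf and 3.04, 1.69 and 1.64 CPM in csf1rDM at 28 hpf. Its control values were 19.3, 10.5 and 10.2 CPM at 50 hpf and 1.66, 2.76 and 3.41 CPM at 28 hpf. It rose with stage by 3.48 ± 0.40 on the log2 scale in csf1rDM (adjusted p = 3.5e-05) and 2.33 ± 0.38 in control (adjusted p = 0.00063). The control value was 1.93 in the 8-library fit (adjusted p = 0.0301). The genotypes overlapped at both stages.

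plxnd1, a semaphorin 3 receptor best known from vessels, had 50.1, 76.2 and 110.4 CPM in csf1rDM at 50 hpf and 22.3, 41.1 and 32.4 CPM in csf1rDM at 28 hpf. In control it had 68.6, 45.1 and 65.8 CPM at 50 hpf and 23.2, 25.4 and 23.9 CPM at 28 hpf. The fitted log2 fold change with stage was 1.30 ± 0.27 in csf1rDM (adjusted p = 0.0034) and 1.31 ± 0.27 in control (adjusted p = 0.0038). Both calls were lost in the 8-library fit (0.93, adjusted p = 0.0643, and 1.42, adjusted p = 0.0269) and without any 1 of several libraries. In csf1rDM these were replicates 1 and 3 at 28 hpf and replicate 3 at 50 hpf, and in control all 3 replicates at 28 hpf and replicates 1 and 3 at 50 hpf. The csf1rDM call was also lost with only the 6 csf1rDM libraries in the fit.

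Summed CPM of the endothelial markers found (13 of 14) was 166 to 184 in csf1rDM and 172 to 207 in control at 50 hpf, and 129 to 156 in csf1rDM and 122 to 128 in control at 28 hpf. tek and TIE1 carried most of it, while cdh5 and kdrl averaged under 2 CPM in every group. robo4 averaged 17.4 CPM in csf1rDM and 40.3 CPM in control at 50 hpf, with 0.204 and 1.18 CPM at 28 hpf. plvapb averaged 11.7 CPM in csf1rDM and 6.49 CPM in control at 50 hpf, with 2.02 and 1.41 CPM at 28 hpf. The part of endothelial cells in the plexin values was not tested.

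Among the other plexins, PLXNB1 (ENSDARG00000075821) had 19.9, 2.73 and 25.0 CPM in csf1rDM and 57.1, 27.2 and 25.8 CPM in control at 50 hpf, with a log2 fold change of -1.21 ± 0.52 (adjusted p = 0.13). At 28 hpf it had 29.3 to 41.3 CPM in csf1rDM and 32.9 to 35.6 CPM in control. PLXNA1, PLXNA3, PLXNA4, plxnb3 and the second PLXNB1 gene lay between 0 and 7.77 CPM in all libraries. Some of their log2 fold changes were past the fold limit, with no adjusted p under 0.01.

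The neuropilins, which are co-receptors of class 3 semaphorins and of vascular endothelial growth factor, passed no threshold between genotypes. NRP1 had 59.9, 79.2 and 72.2 CPM in csf1rDM at 50 hpf and 28.4, 40.0 and 42.9 CPM in csf1rDM at 28 hpf. Control libraries held 61.3, 41.0 and 43.8 CPM at 50 hpf and 34.7, 27.5 and 25.0 CPM at 28 hpf. The stages did not overlap in either genotype, with a log2 fold change of 0.92 ± 0.20 in csf1rDM (adjusted p = 0.0037) and 0.75 ± 0.20 in control (adjusted p = 0.015), inside the fold limit. nrp1b had 58.6 to 77.9 CPM at 50 hpf and 36.8 to 64.0 CPM at 28 hpf over both genotypes, and the NRP2 genes had 0 to 12.8 CPM.

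All 7 secreted semaphorins had few counts, up to 10.1 CPM. Class 3 semaphorins are the diffusible ligands of the plexin and neuropilin complexes. SEMA3D had 6.87, 10.1 and 4.96 CPM in csf1rDM at 50 hpf and 1.09, 0.540 and 1.28 CPM in csf1rDM at 28 hpf. Its control values were 1.63, 3.49 and 0.832 CPM at 50 hpf and 0.238, 0.345 and 0.0620 CPM at 28 hpf. It rose with stage by 2.91 ± 0.63 on the log2 scale in csf1rDM (adjusted p = 0.0039) and 3.19 ± 0.69 in control (adjusted p = 0.0049). The 28 hpf values were 9, 8 and 18 counts in csf1rDM and 3, 5 and 1 counts in control. Changes of SEMA3D that involve those libraries are therefore uncertain in size.

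Between genotypes the SEMA3D libraries did not overlap at either stage. On the log2 scale the change was 1.86 ± 0.58 at 50 hpf (adjusted p = 0.04) and 2.14 ± 0.71 at 28 hpf (adjusted p = 0.05), past the fold limit and short of the p threshold. At 50 hpf DESeq2 gave 1.92 with an adjusted p of 0.0092.

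SEMA3G had 4.67, 7.16 and 3.93 CPM in csf1rDM at 50 hpf and 1.46, 0.810 and 0.0713 CPM in csf1rDM at 28 hpf. In control it had 3.0004, 5.21 and 4.54 CPM at 50 hpf and 0.158, 0.138 and 0.124 CPM at 28 hpf. Each of those 28 hpf control values was 2 counts, so the size of the control change with stage is uncertain. The log2 fold change with stage was 2.81 ± 0.67 in csf1rDM (adjusted p = 0.0074) and 4.85 ± 0.78 in control (adjusted p = 0.00061). Between genotypes the SEMA3G libraries overlapped at both stages. The log2 fold change was 0.30 ± 0.60 at 50 hpf and 2.34 ± 0.80 at 28 hpf (adjusted p = 0.057). The 28 hpf value was called without csf1rDM replicate 3. The SEMA3D calls and the csf1rDM call of SEMA3G were lost without any 1 of several libraries and in the 8-library fit, where SEMA3D had 3.35 in csf1rDM (adjusted p = 0.0131) and 1.90 in control (adjusted p = 0.249) and SEMA3G 2.35 in csf1rDM (adjusted p = 0.0231). Left out, those libraries were csf1rDM replicates 1 and 2 at 28 hpf and 2 at 50 hpf for SEMA3D in csf1rDM. In control they were all 3 replicates at 28 hpf and replicates 1 and 2 at 50 hpf, and for SEMA3G csf1rDM replicate 2 at 28 hpf and all 3 replicates at 50 hpf. With 1 library left out, the adjusted p was at most 0.0208 for SEMA3D in csf1rDM and 0.0274 for SEMA3G in csf1rDM. With only the 6 csf1rDM libraries in the fit it was 0.0499 for SEMA3G.

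**Figure D5:**
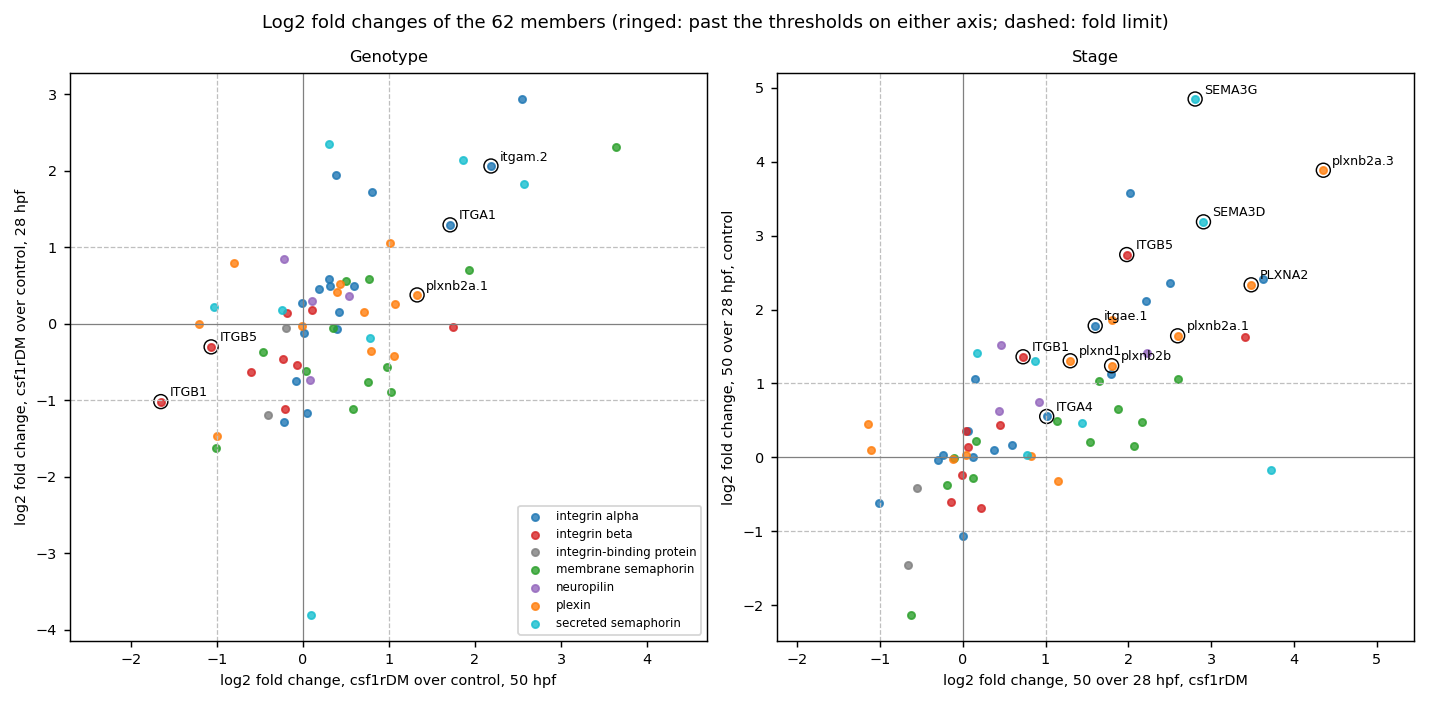
log2 fold changes of the 62 members. The left panel plots csf1rDM over control at 50 hpf (horizontal) and 28 hpf (vertical), the right panel 50 over 28 hpf in csf1rDM (horizontal) and control (vertical), with points coloured by class, ringed where a member passed on either axis, and dashed lines at the fold limit. ITGB1 and ITGB5 lie to the lower left in the genotype panel, and every ringed member lies above 0 on both axes of the stage panel.

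No member passed the test of the genotype by stage interaction with edgeR (0 of 62, with 0.158% of all genes tested called), and DESeq2 also called 0. At an unadjusted p under 0.05 there were 3 members: plxnb2b (0.56 ± 0.23), ITGB5 (-0.76 ± 0.33) and ITGA4, with an adjusted p of 0.33 to 0.37, while 12.9% of all genes tested had such an unadjusted p. A member that passed in 1 genotype or stage and not in the other was therefore not shown to differ between them.

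The genes around the integrins were read from a list of adaptors that link integrins to actin. Of 30 adaptors tested, NEDD9, a docking protein of focal adhesions, rose in csf1rDM at 50 hpf (log2 fold change 1.27 ± 0.29, adjusted p = 0.0079), where 2.29% of all genes rose. At 28 hpf 0 adaptors passed and 10 had an unadjusted p under 0.05, as did 33.5% of all genes. With stage, VCL (ENSDARG00000098695), for vinculin, fell by 1.56 on the log2 scale in csf1rDM and by 1.95 in control (adjusted p = 5.2e-05 and 1e-05). PXN (ENSDARG00000088590), for paxillin, fell by 1.09 in control (adjusted p = 0.0011), with -0.62 in csf1rDM (adjusted p = 0.029). Thus 1 adaptor fell with stage in csf1rDM and 2 in control, where 3.54% and 2% of all genes tested fell. The other adaptors passed in no comparison. The median of the list with stage was -0.42 in csf1rDM and -0.16 in control, against 0.04 and 0.06 for all genes.

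Of 24 matrix and surface ligands of integrins tested, 0 passed between genotypes at 28 hpf, where 10 again had an unadjusted p under 0.05. At 50 hpf 2 rose and 1 fell in csf1rDM, where 2.29% of all genes tested rose and 3.04% fell. FN1 (ENSDARG00000019815), for fibronectin, was 1.87 ± 0.40 higher on the log2 scale, and cdh1, the E-cadherin that alpha-E integrin binds in mammals, was 1.11 ± 0.12 higher. vcam1b, a ligand of VLA-4, had a log2 fold change of -1.63 ± 0.32 (adjusted p = 0.0032). With stage 3 of the ligands rose and 1 fell in csf1rDM, where 4.7% of all genes tested rose and 3.54% fell. In control 4 rose and 1 fell, where 4.29% of all genes rose and 2% fell. Among them vcam1b rose by 1.39 ± 0.34 in csf1rDM and 2.25 ± 0.33 in control. icam3, of the family bound by beta2 integrins, rose by 2.08 ± 0.30 in csf1rDM and 3.14 ± 0.31 in control.

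NPNT, for the matrix ligand nephronectin, rose with stage by 3.82 ± 0.37 in csf1rDM and 3.02 ± 0.37 in control. cdh1, which is also a keratinocyte marker here, fell by 1.25 in csf1rDM and by 1.92 in control. COL1A2, which is also in the muscle and mesenchyme markers, rose in control by 4.19 ± 0.91, and 2 of its 3 control libraries at 50 hpf had over 1000 CPM of those markers. The part of muscle and mesenchyme cells in this value was not tested.

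Of 27 partners of semaphorin and plexin signalling tested, ERBB2, a receptor kinase that associates with class B plexins, rose in csf1rDM at 50 hpf by 1.51 ± 0.25 (adjusted p = 0.00095). timd4, a phagocytic receptor for phosphatidylserine that was also on the list, fell by 1.32 in csf1rDM at 28 hpf (adjusted p = 0.0079). Whether timd4 acts in semaphorin signalling was not tested. With stage 3 rose and 1 fell in csf1rDM, where 4.7% of all genes tested rose and 3.54% fell. In control 2 rose and 1 fell, where 4.29% of all genes rose and 2% fell. FARP1, a guanine nucleotide exchange factor that acts with plexin A, rose by 1.12 ± 0.16 in csf1rDM and 1.18 ± 0.16 in control, timd4 rose by 1.82 and 1.25, and ERBB2 rose by 1.08 in csf1rDM. FES, a kinase that acts downstream of plexin A, fell by 1.31 in csf1rDM and by 1.91 in control.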

How the data were processed

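Whole-number read counts per Ensembl gene ID were deposited by the authors in 1 table of 12 libraries. According to the methods and the submitters' processing notes, cDNA was amplified with the SMART-seq V4 kit, sequenced in pairs, and mapped with STAR (2.5.4b) to GRCz10. The notes also list CASAVA 1.8, cutadapt, Cufflinks 2.2.1, HTSeq 0.11.0 and edgeR. The counter, strand setting and annotation release of this table are not given in the sources used here, so reads of paralogues, overlapping genes or antisense genes cannot be assigned with certainty. Amplified reads without molecular identifiers are not independent molecules.

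Counts were filtered with filterByExpr, scaled by TMM and fitted in edgeR 4.0.16 (R 4.3.3, limma 3.58.1) with a mean per group over all 12 libraries. Contrasts were read from glmQLFTest with Benjamini-Hochberg adjustment over 16429 genes. The genotype and stage contrasts use the same libraries in part. SE was the log2 fold change over the square root of F. DESeq2 1.42.0, other scalings and filters, the 6 libraries compared, a replicate block and leaving out each library were alternatives. The code was tested on simulated data. Symbols came from a names table that covered 27000 of the IDs, matched to the rule without regard to letter case, since 40 of the 62 members carry upper-case symbols. A symbol of the companion lists with a final a or b was matched without it where needed. Members named in full were those past the thresholds, the 10 with the highest mean CPM, the beta2 family and the VLA-4 and thrombocyte pairs. Others were chosen after their values were seen. The members, the lists and the tests were chosen with earlier results of these data known. No sequence was printed because no sequence file was used here.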

Additional observations from a re-analysis of the deposited data

How the results depend on the processing

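The calls were repeated under 22 alternative settings. Over these, apart from the setting with looser thresholds given below, 28 called values of members gave 414 alternative values. Of them, 349 kept their side of the thresholds, 65 did not and 0 changed sign. Of the 28 calls, 13 held in every setting that tested them. Among these were itgam.2 at both stages, ITGA1 at 50 hpf, and itgae.1, ITGB5 and plxnb2b with stage. A filter of at least 10 counts in every library removed plxnb2a.3, SEMA3D and SEMA3G, so their calls with stage could not be made there. The 13 include the control calls of plxnb2a.3 and SEMA3G, which that filter left untested. Of 1067 alternative values of named members that were not called, 59 changed sign, none of them called. Other members were added under some settings. Between genotypes, SEMA3G was added at 28 hpf without csf1rDM replicate 3. With stage in control, DESeq2 added ITGA3 and itgb3bp, and the fit on the 6 control libraries added ITGA3, ITGA5, itgb3bp and sema7a. With stage in csf1rDM, DESeq2 added ITGB4 and sema7a, and ITGA5 was added without csf1rDM replicate 3 at 50 hpf. NRP1 was added there with library totals only, without csf1rDM replicate 3 at 28 hpf or without csf1rDM replicate 1 at 50 hpf. At an adjusted p under 0.05 with no fold limit, 11 members were called between genotypes at 50 hpf, 11 at 28 hpf, 15 with stage in csf1rDM and 17 with stage in control, where 19.9%, 20.5%, 27.6% and 23.4% of all genes were. In the 8 libraries under 1000 CPM of muscle and mesenchyme markers, which by construction leave fewer libraries and 1 control at 50 hpf assumed to vary like the other groups, some calls were lost and no member was added. Leaving out 1 library at a time gave 3 to 5 members between genotypes at 50 hpf, 1 to 2 at 28 hpf, 7 to 11 with stage in csf1rDM and 7 to 9 in control. Over all genes, with 16853 to 17580 tested, these fits called 615 to 797, 436 to 709, 1204 to 1401 and 781 to 870 in the same order. The count at 28 hpf was 1 without control replicate 1 or 2, and that at 50 hpf was 3 without control replicate 2 or 3 or csf1rDM replicate 1 or 3.

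With the replicate block the counts were 5 between genotypes at 50 hpf, 2 at 28 hpf, and 10 with stage in each genotype. Of 16429 genes tested, the block fit called 783 between genotypes at 50 hpf, 581 at 28 hpf, 1232 with stage in csf1rDM and 955 in control. ITGB1 (ENSDARG00000053232) at 28 hpf (adjusted p = 0.0134) and SEMA3G with stage in csf1rDM (adjusted p = 0.0104) were not called under it, and ITGB4 with stage in csf1rDM was added. No clear pairing by replicate number was seen. Same-numbered libraries had correlated deviations above 0.1 in 4 of 18 pairs, and 6 of 12 libraries were closest to their own number. With few libraries per group, this check cannot exclude pairing. Library totals without TMM scaling moved the median of all genes with stage to 0.15 on the log2 scale in both genotypes. Over all genes, DESeq2 called 1193 between genotypes at 50 hpf and 991 at 28 hpf, 1787 with stage in csf1rDM, 1404 in control and 133 for the interaction, against 875, 670, 1353, 1033 and 26 with edgeR.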
